A study of Mus musculus with 4 samples.

Results

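The 10 genes described here mark macrophages and, among them, the Kupffer cells of the liver: *Lyz2*, *Apoe*, *C1qa*, *C1qb*, *C1qc*, *Csf1r*, *Cd5l*, *Clec4f*, *Vsig4* and *Marco*. They were chosen by symbol from the 32285 genes of the count tables, and each has a single row there. They were followed through cell groups drawn by UMIs (unique molecular identifiers, each standing for 1 counted RNA molecule) of *Lyz2* and of the C1q genes, and their level in T cells was used as the measure of free RNA.

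Macrophages depend on signals through the receptor encoded by *Csf1r*, take up and recycle lipids through apolipoprotein E, and secrete the 3 chains of C1q, which starts the classical complement pathway. Kupffer cells are the resident macrophages of the liver sinusoid, and they carry scavenger and capture receptors that clear particles, lipids and complement-coated microbes from portal blood. In fatty liver disease, resident Kupffer cells can be lost and monocyte-derived macrophages enter the tissue, so *Lyz2* and *Apoe*, which both kinds express, do not separate them, whereas *Clec4f* is largely restricted to Kupffer cells.

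The study measured hepatic CD4+ T cells of male mice with single-cell RNA-seq by droplets with a 5′ kit, together with their T cell receptors. WT mice were compared with dKO mice, in which Nr4a1 fl/fl and Nr4a2 fl/fl alleles were combined with Cd4-Cre, which is active in T cells and leaves macrophages untargeted. Both groups were fed CD, a diet with 60 kcal% fat, 0.1% methionine and no added choline that causes metabolic dysfunction-associated steatohepatitis (MASH), for 8 weeks, and the age of these mice was not given in the sources used here. For each genotype 2 mice were pooled into 1 library, so that no test between genotypes was possible, and all intervals in parentheses are exact 95% intervals that cover counting error only, not differences between mice or preparations.

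The targeted genes went against the labels. *Nr4a1* was at 725 CPM (counts of a gene's UMIs scaled to a common total of UMIs in the cell group) in the WT-labelled library and at 1659 CPM in the dKO-labelled one, and *Nr4a2* was at 183 and 306 CPM, over all cells kept. Among T cells, where Cd4-Cre acts, *Nr4a1* was at 700.3 CPM (683 to 717) and 1793 CPM (1766 to 1820), and *Nr4a2* at 182 and 369.8 CPM. A UMI of *Foxp3*, which defines regulatory T cells, was found in 6.89% and 29.7% of the T cells, and one of *Ifng*, the cytokine of Th1 cells, in 24.9% and 8.72%. Neither of the latter genes was targeted, and their shares do not go against the labels. For *Nr4a1* and *Nr4a2*, the counts do not separate the exons inside and outside the floxed segments. For that reason the libraries are called by their labels throughout, and each direction between them is that of the labels. After filtering, 10556 and 17462 cells remained, with medians of 1679 and 1685 UMIs per cell, and 242 barcodes occurred in both libraries, of which 0 lay in a myeloid gate of both.

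Although the cells had been sorted as CD4+ T cells, receptor contigs were found for 36.4% of the cells in the WT-labelled library and for 28.0% in the dKO-labelled one. Cells with neither a TRA nor a TRB contig were divided by UMIs. C1q-positive cells had at least 3 UMIs summed over *C1qa*, *C1qb* and *C1qc*. C1q-negative *Lyz2* cells had at least 3 *Lyz2* UMIs and none of C1q, and intermediate cells had at least 3 *Lyz2* UMIs with 1 or 2 of C1q. A further gate held *Siglech* cells, with at least 3 UMIs of *Siglech*, a gene of plasmacytoid dendritic cells, and under 3 each of *Lyz2* and C1q. T cells were those with a productive TRB contig and under 3 UMIs each of *Lyz2* and C1q.

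C1q-positive cells numbered 138, or 1.31% of the cells (1.10 to 1.54), in the WT-labelled library and 264, or 1.51% (1.34 to 1.70), in the dKO-labelled one. C1q-negative *Lyz2* cells numbered 124 (1.17%, 0.978 to 1.40) and 144 (0.825%, 0.696 to 0.970). The C1q-positive shares overlapped in their intervals and the C1q-negative shares did not. Depth in the gates differed between the libraries, unlike the medians over all cells. The median was 1776.5 and 2734.5 UMIs in C1q-positive cells and 1845.5 and 3718.5 UMIs in C1q-negative *Lyz2* cells. The gates used fixed UMI numbers, so shares and ratios between the libraries are not matched for depth except where thinning is named. Intermediate cells numbered 35 and 37, *Siglech* cells 934 and 3291, and T cells 3380 and 4027. The largest group was the remaining cells without a contig, with under 3 UMIs each of *Lyz2*, C1q and *Siglech*. They numbered 5484 (52.0%) and 8829 (50.6%). At the edge of the gates, 20 and 37 cells without a contig had exactly 3 C1q UMIs and 51 and 64 had exactly 2, and 27 and 34 cells had exactly 3 *Lyz2* UMIs and 56 and 80 had exactly 2.

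The sort leaves T cell RNA to be looked for in these gates. At least 2 UMIs over *Cd3d*, *Cd3e* and *Cd3g* were found in 61 of the 138 C1q-positive cells labelled WT (44.2%) and in 117 of the 264 labelled dKO (44.3%). The shares were 21.0% and 22.9% of C1q-negative *Lyz2* cells and 92.7% and 93.7% of T cells. They were 65.2% and 79.3% of the remaining cells without a contig. Lack of a contig alone therefore does not mark a cell as other than a T cell. The 6 genes of the T cell list summed to 1896 and 1439 CPM in C1q-positive cells, to 821 and 753 CPM in C1q-negative *Lyz2* cells and to 3878 and 4816 CPM in T cells. The part that droplets holding a macrophage and a T cell have in the gates was not tested. Genes of hepatocytes summed to at most 17.9 CPM in both gates and those of sinusoidal endothelium to at most 7.83 CPM, with *Stab2* and *Ptprb* at 0 in C1q-positive cells.

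**Figure D1:**
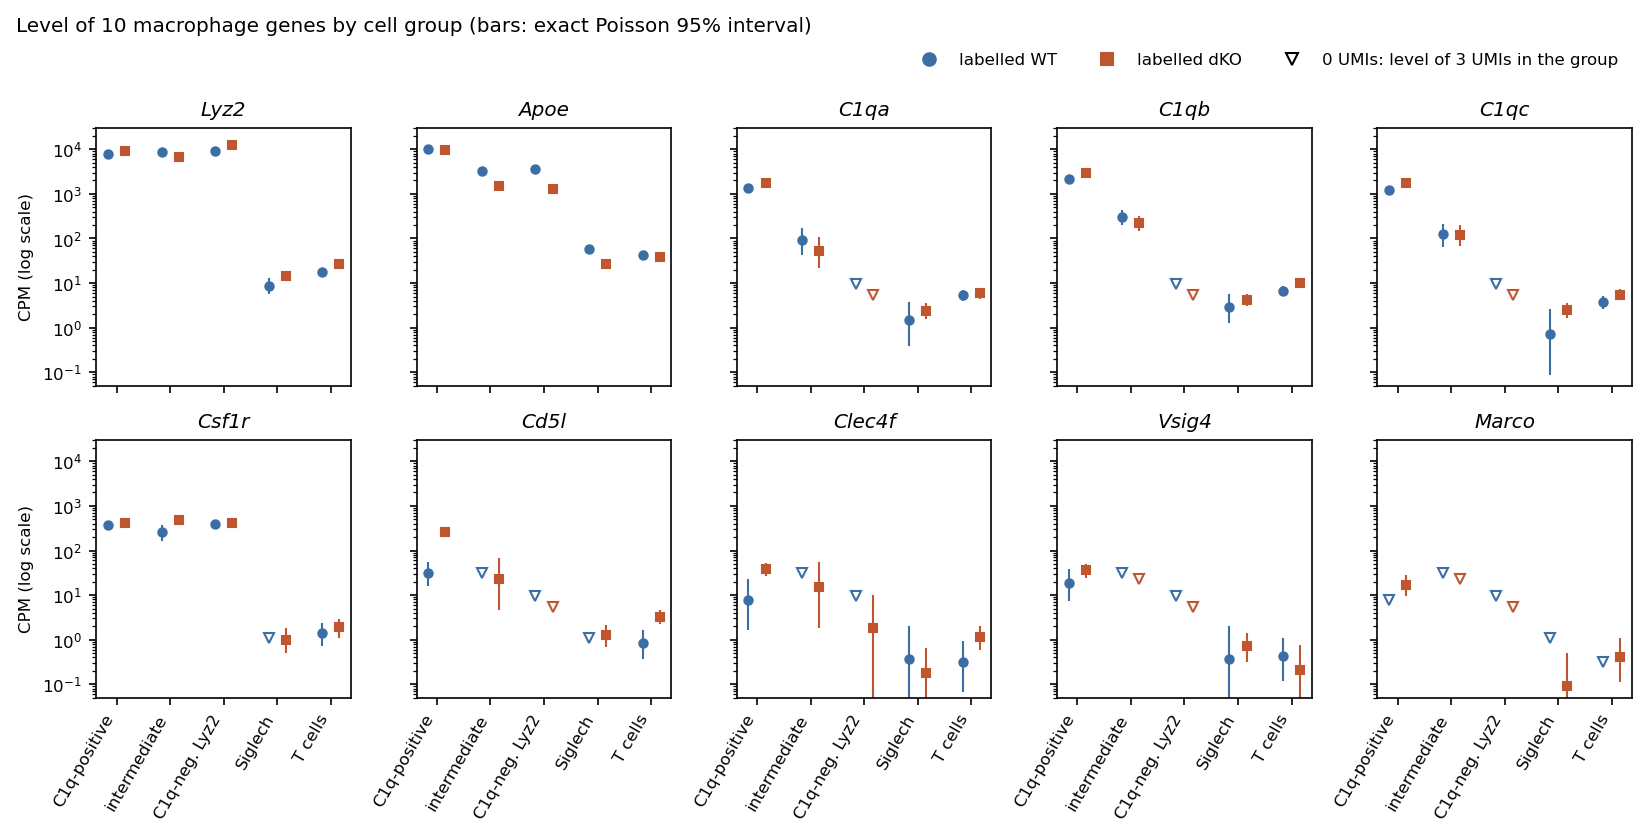
Level of each of the 10 genes, in CPM on a log axis, in 5 cell groups of the libraries labelled WT and dKO, with exact Poisson 95% intervals as bars and an open triangle, at the level of 3 UMIs, where the count was 0. In C1q-positive cells *Lyz2*, *Apoe*, *Csf1r* and the C1q genes stand more than 100-fold above their level in T cells, and the 4 Kupffer genes have 1 UMI in all in C1q-negative *Lyz2* cells. The C1q genes chose the C1q-positive gate, and T cells were held under 3 UMIs each of *Lyz2* and C1q. The contrasts of these genes are therefore set by the rules, for *Lyz2* in part, and those of *Apoe* and *Csf1r* are not.

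Promoter sequences are shown for *C1qb*, which the gate used by rule, and for the Kupffer genes *Cd5l* and *Vsig4*. These 3 were chosen because they alone of the genes with an entry held both motifs described here: of the other Kupffer genes, *Clec4f* lacked the PU.1 letters and *Marco* the MAF letters. Windows from 250 bases before to 50 bases after the start of the gene were taken from RefSeq on GRCm38.p6, in which 8 of the 10 genes have an entry. Capitals mark the letters GAGGAA or TTCCTC, the core bound by PU.1, a factor needed for all macrophages, and TGCTGA or TCAGCA, the half-site of MAF factors, each read on both strands. The promoter of *C1qb* lies at chr4:136886151-136886450 on the minus strand, that of *Cd5l* at chr3:87357631-87357930 on the plus strand and that of *Vsig4* at chrX:96293389-96293688 on the minus strand, each printed 5′ to 3′.
C1qb: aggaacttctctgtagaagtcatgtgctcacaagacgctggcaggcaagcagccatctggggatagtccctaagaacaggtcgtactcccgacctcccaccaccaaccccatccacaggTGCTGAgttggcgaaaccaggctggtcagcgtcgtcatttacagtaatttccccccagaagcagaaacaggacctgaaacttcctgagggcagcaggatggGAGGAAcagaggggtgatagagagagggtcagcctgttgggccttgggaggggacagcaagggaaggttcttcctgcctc
Cd5l: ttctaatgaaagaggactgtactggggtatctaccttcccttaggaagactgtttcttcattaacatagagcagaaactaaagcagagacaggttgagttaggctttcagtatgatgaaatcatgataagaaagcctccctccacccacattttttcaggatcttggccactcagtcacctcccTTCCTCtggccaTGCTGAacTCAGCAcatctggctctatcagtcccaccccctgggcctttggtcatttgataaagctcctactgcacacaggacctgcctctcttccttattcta
Vsig4: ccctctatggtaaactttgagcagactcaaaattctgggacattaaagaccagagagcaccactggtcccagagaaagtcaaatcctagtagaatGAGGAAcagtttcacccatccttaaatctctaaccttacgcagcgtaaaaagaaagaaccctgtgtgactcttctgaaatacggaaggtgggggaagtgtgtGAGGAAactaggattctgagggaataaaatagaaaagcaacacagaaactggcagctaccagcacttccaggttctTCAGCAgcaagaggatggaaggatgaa
Of the 8 genes with an entry, 6 held the PU.1 letters in any of their windows, and 5 held the MAF letters. Of all 32851 single promoter windows, 28.3% and 19.5% held them, and *Apoe*, with 3 windows, had more chances of a match than a single window. The 2 motifs overlapped at 0 places in these windows. A match is a description of letters, and factor binding was not measured.

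*Lyz2* encodes lysozyme M, a bactericidal enzyme of macrophages, monocytes and neutrophils (ENSMUSG00000069516, chr10:117277331-117282321, minus strand of GRCm38). Since it drew the gates, its levels there are a description. In C1q-positive cells, which were not chosen by *Lyz2*, it was at 7685 CPM (7409 to 7967) in the WT-labelled library and at 8966 CPM (8771 to 9164) in the dKO-labelled one. It was seen in 88.4% and 89.4% of these cells, with medians of 6 and 10 UMIs per cell and highest values of 260 and 343. In C1q-negative *Lyz2* cells it was at 9253 and 12598 CPM, with medians of 13 and 35 UMIs per cell. The cells labelled dKO were deeper in both gates, which also enters these medians. *Lyz1*, a near copy on the same chromosome with which reads could be shared, was at 7.83 and 17.9 CPM in C1q-positive cells and at 0 in T cells of both libraries.

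The C1q chains are encoded side by side on chromosome 4 of GRCm38, *C1qb* at 136880129 to 136886187 (ENSMUSG00000036905), *C1qc* at 136889804 to 136893065 (ENSMUSG00000036896) and *C1qa* at 136895917 to 136898803 (ENSMUSG00000036887), all on the minus strand. They chose the C1q-positive gate. There *C1qa* was at 1321 and 1745 CPM, *C1qb* at 2196 and 3016 CPM and *C1qc* at 1240 and 1760 CPM in the libraries labelled WT and dKO. All 3 genes were detected in 85 of 138 and in 190 of 264 cells. The share of each chain among the C1q UMIs, which the gate did not fix, was nearly the same in both libraries: 27.8% and 26.8% for *C1qa*, 46.2% and 46.3% for *C1qb* and 26.1% and 27.0% for *C1qc*. The few C1q UMIs of T cells were divided in a like way, with 43.0% and 46.8% from *C1qb*.

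*Apoe* encodes apolipoprotein E, a ligand for lipoprotein uptake that macrophages and hepatocytes secrete (ENSMUSG00000002985, chr7:19696109-19699188, minus strand). It was not used for the gates. In C1q-positive cells it was at 10144 CPM (9828 to 10468) in the WT-labelled library and at 9612 CPM (9410 to 9817) in the dKO-labelled one, and 94.9% and 94.3% of the cells had a UMI. In C1q-negative *Lyz2* cells it was at 3703 CPM (3495 to 3919) and 1320 CPM (1225 to 1419), and 69.4% and 60.4% of the cells had a UMI. *Apoe* was thus 2.74-fold higher (2.57 to 2.93) in C1q-positive than in C1q-negative *Lyz2* cells labelled WT and 7.28-fold higher (6.75 to 7.87) in those labelled dKO. On the log2 scale these ratios were 1.45 and 2.86, and over 9 other gates and settings they ranged from 1.27 to 2.12 and from 2.78 to 3.23, with the highest values at 10 or more C1q UMIs.

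*Csf1r*, the receptor for the growth factors CSF1 and IL-34 (ENSMUSG00000024621, chr18:61100598-61132149, plus strand), did not differ between the gates beyond counting error. Its level was 366 CPM (308 to 431) and 405 CPM (364 to 449) in C1q-positive cells, against 392 CPM (327 to 467) and 423 CPM (370 to 481) in C1q-negative *Lyz2* cells. The log2 ratio between the gates was −0.10 (−0.46 to 0.26) in the WT-labelled library and −0.06 (−0.30 to 0.18) in the dKO-labelled one. A *Csf1r* UMI was found in 47.8% and 59.5% of C1q-positive cells and in 0.355% and 0.372% of T cells. This held with most definitions of the gates, but without cells that had at least 2 Cd3 UMIs *Csf1r* was higher in C1q-positive cells labelled WT (0.44, 0.03 to 0.84), as it was at 10 or more C1q UMIs (0.40, 0.0036 to 0.79).

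Of the 10 genes, *Lyz2*, *Apoe* and *Csf1r* had counts high enough to be compared between the 2 gates (at least 100 CPM in either gate and at least 10 UMIs in the lower). Only *Apoe* was more than 2-fold higher in C1q-positive cells, in both libraries, and 0 were more than 2-fold lower. Of all genes compared, 4.61% were that much higher and 3.41% lower in the WT-labelled library, and 4.46% and 4.19% in the dKO-labelled one. In C1q-negative *Lyz2* cells the C1q genes were at 0 by definition, and the 4 Kupffer genes at 0 but for 1 UMI of *Clec4f* in the library labelled dKO. With 3 UMIs per library and gate as the floor for a count of 0, *Cd5l* was at least 3.36-fold and at least 46.6-fold higher in C1q-positive cells, and the exact intervals, which also cover the error of the C1q-positive count, reached down to 2.33-fold and 37.6-fold. For *Vsig4* the floor gave at least 1.96-fold and 6.57-fold, with lower limits of the exact intervals of 1.21-fold and 5.04-fold. *Marco* was at least 3.08-fold higher in the library labelled dKO, with a lower limit of 2.21-fold.

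The level of the other genes moved with the number of C1q UMIs within the C1q-positive gate, in bins chosen after the values were seen. In cells with 3 to 5, 6 to 15 and at least 16 C1q UMIs, *Apoe* was at 3671, 6310 and 19152 CPM in the WT-labelled library and at 2912, 5464 and 13873 CPM in the dKO-labelled one. *Lyz2* was at 2087, 6412 and 13599 CPM and at 4742, 5701 and 11940 CPM, and *Csf1r* at 204, 330 and 534 CPM and at 245, 301 and 508 CPM. *Cd3e*, a chain of the T cell receptor complex, went the other way, from 605 to 195 CPM and from 558 to 180 CPM. *Cd5l* had no such order, with 173, 332 and 248 CPM in the library labelled dKO. Cells with few C1q UMIs therefore had lower *Apoe*, *Lyz2* and *Csf1r* and higher *Cd3e* per UMI. The bins share cells and libraries with the gate, and depth also enters the number of C1q UMIs.

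**Figure D2:**
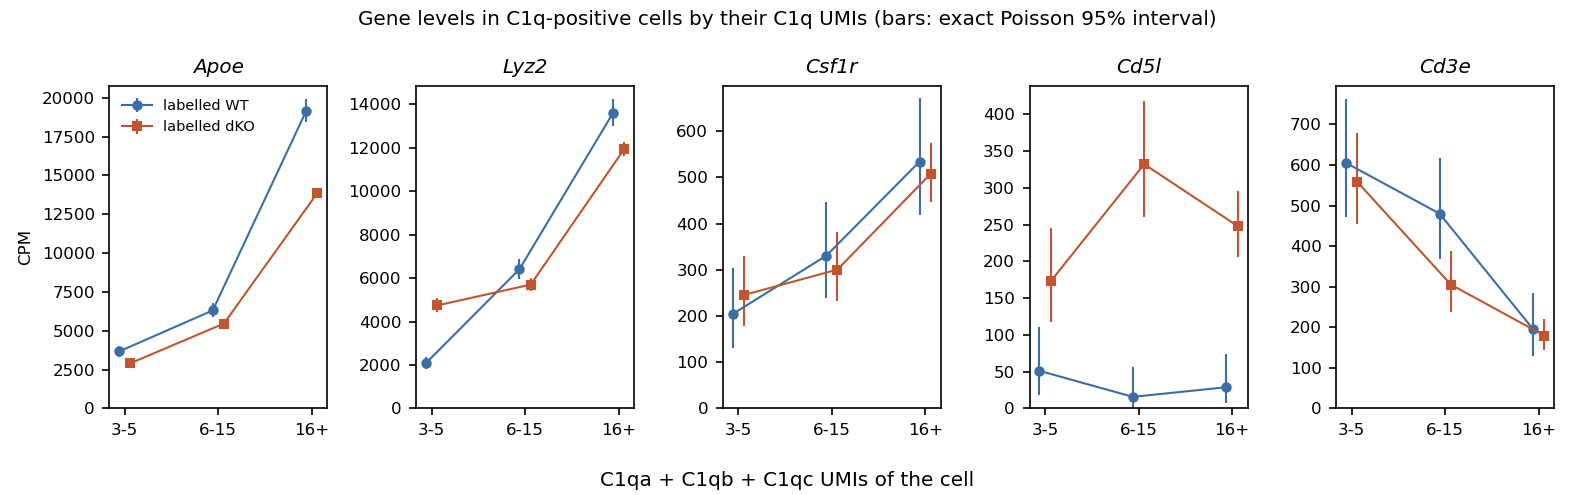
Levels in CPM of *Apoe*, *Lyz2*, *Csf1r*, *Cd5l* and *Cd3e* in C1q-positive cells with 3 to 5, 6 to 15 and at least 16 C1q UMIs, in the libraries labelled WT and dKO, with exact Poisson 95% intervals as bars. *Apoe*, *Lyz2* and *Csf1r* are highest and *Cd3e* lowest in the cells with most C1q UMIs, while *Cd5l* stays between 173 and 332 CPM in the library labelled dKO.

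The Kupffer genes were found in few cells. *Cd5l* encodes AIM, a secreted scavenger receptor protein that is induced by LXR nuclear receptors (ENSMUSG00000015854, chr3:87357881-87371073, plus strand). Of its UMIs in C1q-positive cells, 12 lay in 7 cells (5.07%) of the library labelled WT and 227 in 64 cells (24.2%) of the library labelled dKO, against 0.237% and 0.770% of T cells with a UMI. The level was 31.3 CPM (16.2 to 54.7) and 254 CPM (222 to 289). At an equal depth of 1000 randomly drawn UMIs per cell, which 24 gated cells labelled WT and 21 labelled dKO did not reach, 2 of 114 cells (1.75%) and 47 of 243 cells (19.3%) had a *Cd5l* UMI.

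*Clec4f*, a C-type lectin that binds glycans (ENSMUSG00000014542, chr6:83644542-83656187, minus strand), had 3 UMIs in 2 C1q-positive cells labelled WT and 34 UMIs in 12 cells labelled dKO. *Vsig4*, the complement receptor CRIg, which binds C3 fragments (ENSMUSG00000044206, chrX:96247203-96293438, minus strand), had 7 UMIs in 4 cells and 32 UMIs in 16 cells. *Marco*, a class A scavenger receptor (ENSMUSG00000026390, chr1:120474538-120505024, minus strand), had 0 UMIs and 15 UMIs in 3 cells. All 4 Kupffer genes thus rested on small numbers of cells, and *Marco* on 3. In intermediate cells labelled dKO, *Cd5l* had 3 UMIs and *Clec4f* had 2, and both were at 0 in those labelled WT.

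C1q-positive cells with at least 2 UMIs summed over *Cd5l*, *Clec4f*, *Vsig4* and *Marco*, a group chosen after the values were seen, numbered 4 of 138 (2.90%, 0.795 to 7.26) in the WT-labelled library and 48 of 264 (18.2%, 13.7 to 23.4) in the dKO-labelled one. They held 17 of the 22 and 289 of the 308 UMIs of these genes. Over all C1q-positive cells, 1 of the 9 other Kupffer list genes was higher and 1 lower in the library labelled dKO, by intervals clear of 0. Of all genes, 6.01% were higher and 6.96% lower in this way. In the library labelled dKO, *Cd5l* was detected in 47 of the 48 cells, 12 cells had both *Cd5l* and *Clec4f*, 14 had *Cd5l* and *Vsig4*, and 2 had *Cd5l* and *Marco*. *Cd3e* was detected in 19 of these 48 cells. Most cells with these UMIs had a single gene of the 4: of the 67 C1q-positive cells labelled dKO with any of them, 45 had 1 gene, 16 had 2 and 6 had 3.

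**Figure D3:**
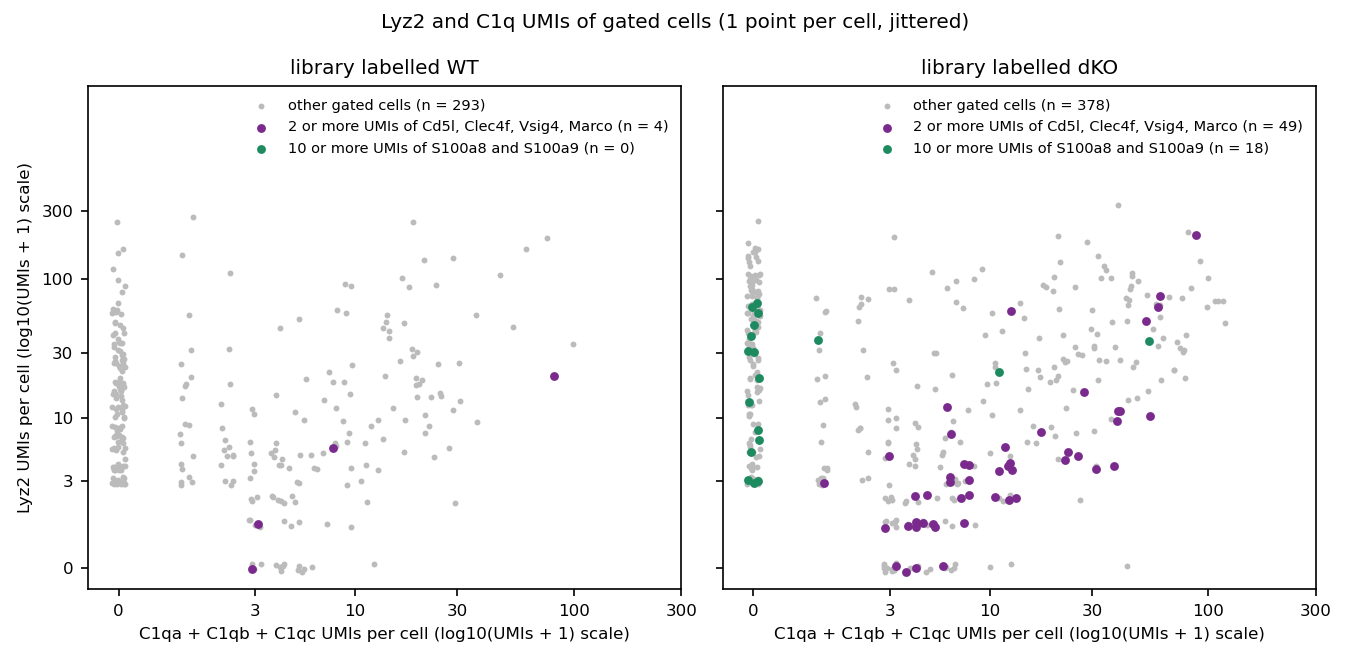
*Lyz2* UMIs against summed C1q UMIs of single cells without a receptor contig in the C1q-positive, C1q-negative *Lyz2* and intermediate gates, for the libraries labelled WT and dKO. The cells with at least 2 Kupffer gene UMIs (4 labelled WT; 49 labelled dKO, of which 48 are C1q-positive and 1 is intermediate) lie on the C1q side, and the 18 cells with at least 10 UMIs of *S100a8* and *S100a9*, all labelled dKO, lie mostly at 0 C1q UMIs.

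In the library labelled dKO these 48 cells were compared with the other C1q-positive cells, as a description. *Apoe* was at 13699 CPM in them and at 9026 CPM in the others (log2 ratio 0.60, 0.52 to 0.68), and *Lyz2* at 5592 and 9449 CPM (−0.76, −0.88 to −0.64). *Csf1r* did not differ beyond counting error (0.32, −0.12 to 0.74), nor did *C1qb* (0.06, −0.11 to 0.22), whereas *C1qa* (0.42, 0.22 to 0.61) and *C1qc* (0.40, 0.20 to 0.59) were higher in the 48 cells. The C1q genes had chosen the gate. Cells with Kupffer genes thus held more *Apoe* and less *Lyz2* than the rest.

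Of the 9 other genes of the Kupffer list, 7 had UMIs enough for an interval, and 6 of them were higher in the 48 cells and 0 lower by intervals clear of 0, where 3.67% of all genes were higher and 2.15% lower in this way. *Slc40a1*, the iron exporter ferroportin, was at 285 CPM against 39.6 CPM (2.85, 2.09 to 3.61), *Nr1h3*, which encodes the nuclear receptor LXRα, at 152 against 69.0 CPM (1.14, 0.26 to 1.94), and *Id3*, a transcriptional regulator, at 437 against 267 CPM (0.71, 0.23 to 1.16). *Hmox1*, which degrades heme, did not differ beyond counting error (0.42, −0.08 to 0.89). Of the list's genes named after their values were seen, *Folr2* had 21 against 1 UMIs, *Clec1b* was at 268 against 21.7 CPM and *Spic*, a factor of iron-recycling macrophages, at 116 against 23.0 CPM. *Timd4* had 1 UMI and *Cd163* had 0, so 2 further markers of resident Kupffer cells were all but missing. *Ccr2*, the chemokine receptor of blood monocytes, was at 35.7 against 174 CPM (−2.28, −4.18 to −0.90), whereas *Ly6c2*, also a monocyte gene, was higher, at 419 against 234 CPM (0.84, 0.35 to 1.31). Both genes are also made by T cells, in which *Ccr2* was at 160.2 and 157 CPM and *Ly6c2* at 179 and 165 CPM in the libraries labelled WT and dKO, and the part of T cell RNA in these values was not tested.

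**Figure D4:**
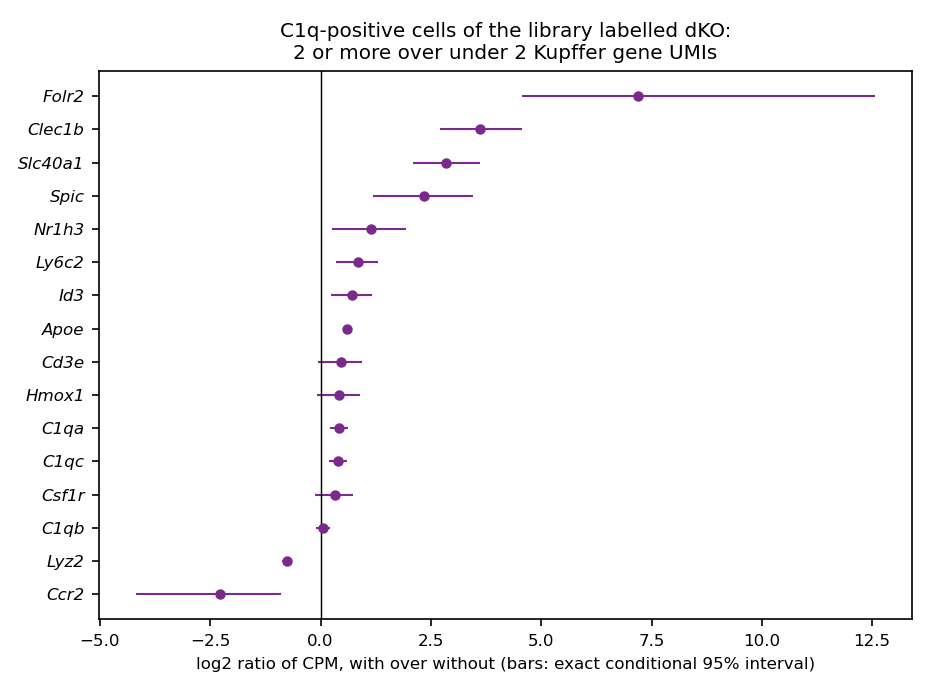
Log2 ratio of CPM between the 48 C1q-positive cells with at least 2 Kupffer gene UMIs and the other C1q-positive cells of the library labelled dKO, with exact conditional 95% intervals as bars. *Folr2*, *Clec1b*, *Slc40a1*, *Spic*, *Nr1h3*, *Ly6c2*, *Id3* and *Apoe* lie above 0, *Lyz2* and *Ccr2* lie below 0, and the intervals of *Cd3e*, *Hmox1*, *Csf1r* and *C1qb* include 0.

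Between the libraries, 7 of the 10 genes reached the level for a comparison in C1q-positive cells, among them the 3 C1q genes that chose the gate, and *Clec4f*, *Vsig4* and *Marco* did not. *Cd5l* reached it through the library labelled dKO alone, with 254 against 31.3 CPM, and so had to be higher there. It was past 2-fold, and *Lyz2*, *Apoe* and *Csf1r* were not. Of the 1875 genes compared, 3.73% were more than 2-fold higher in the library labelled dKO and 4.32% lower. The log2 ratio of *Cd5l* was 3.02 (2.18 to 3.99), and over 11 other settings it ranged from 2.78 to 5.29, the highest after thinning to 1000 UMIs per cell. It was 2.28 (0.61 to 4.63) for *Clec4f* and 0.97 (−0.24 to 2.39) for *Vsig4*, and *Marco* was at least 2.14-fold higher against the same floor, with a lower limit of the exact interval of 1.54-fold. *Cd5l* was also higher in T cells labelled dKO, with a log2 ratio of 1.93 (0.78 to 3.26). Of the 9 other genes of the Kupffer list, 7 had UMIs enough for an interval. In C1q-positive cells labelled dKO 1 was higher and 1 lower by intervals clear of 0, as were 6.01% and 6.96% of all genes. *Id3* was lower (−0.77, −1.04 to −0.49). *Hmox1* (−0.06, −0.37 to 0.26), *Nr1h3* (−0.07, −0.70 to 0.58) and *Slc40a1* (0.67, −0.12 to 1.53) did not differ beyond counting error. The 1 higher gene was not among these 4, which were named by their level.

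The genes shared by all macrophages differed by less than 2-fold between the libraries over all C1q-positive cells. The log2 ratio was 0.22 (0.16 to 0.28) for *Lyz2*, −0.08 (−0.13 to −0.02) for *Apoe* and 0.15 (−0.14 to 0.44) for *Csf1r*. For the C1q genes, which chose the gate, it was 0.40 for *C1qa*, 0.46 for *C1qb* and 0.50 for *C1qc*, as a description. These differences changed with the cells taken. Without the cells that had at least 2 Cd3 UMIs the ratio was −0.23 for *Lyz2*, −0.13 for *C1qa*, −0.043 for *C1qb* and 0.011 for *C1qc*, and that of *Apoe* was 0.019 with a gate at 2 UMIs. *Apoe* was lower in the library labelled dKO in each of the bins by C1q UMIs, with −0.33 (−0.52 to −0.15) at 3 to 5, −0.21 (−0.34 to −0.077) at 6 to 15 and −0.47 (−0.53 to −0.40) at 16 or more. *Lyz2* was higher in the library labelled dKO among cells with 3 to 5 C1q UMIs (1.18, 0.98 to 1.40). It was lower among those with 6 to 15 (−0.17, −0.30 to −0.040) and those with at least 16 (−0.19, −0.26 to −0.11). In C1q-positive cells 5 of the 6 T cell genes were lower in the library labelled dKO and 1 was higher, by intervals clear of 0. Of the 7 genes of plasmacytoid dendritic cells 6 were higher, where 6.96% of all genes were lower and 6.01% higher in this way. The summed level of the plasmacytoid genes was 862 and 1843 CPM there and 735 and 1421 CPM in T cells, and their part in the ratios was not tested.

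In C1q-negative *Lyz2* cells, *Lyz2*, *Apoe* and *Csf1r* could be compared between the libraries, and *Apoe* alone was lower in the library labelled dKO by more than 2-fold, as were 4.82% of the 1785 genes compared, while 0 of the 3 and 2.86% of all were higher. Its log2 ratio was −1.49 (−1.62 to −1.35). That of *Csf1r* was 0.11 (−0.21 to 0.43), and that of *Lyz2*, which chose the gate, was 0.45 (0.38 to 0.51). *Apoe* was also lower in intermediate cells (−1.05, −1.31 to −0.79) and in *Siglech* cells (−1.11, −1.39 to −0.82), while in T cells the interval included 0 (−0.19, −0.40 to 0.02).

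Neutrophil genes also differed between the libraries in this gate. The 10 genes of the neutrophil list summed to 93.3 CPM in C1q-negative *Lyz2* cells labelled WT, with 3 of the 10 detected, and to 32695 CPM in those labelled dKO, with all 10 detected. *S100a8*, a calcium-binding alarmin of neutrophils and monocytes, was at 12.4 and 10620 CPM. In the library labelled dKO, 15 of the 144 cells had at least 10 UMIs over *S100a8* and *S100a9* and held 99.9% of the *S100a8* UMIs, and no cell labelled WT did. These 15 cells had 404 *Lyz2* UMIs, 3 *Apoe* UMIs and 1 *Csf1r* UMI. Without them the log2 ratio of *Apoe* was −1.35 (−1.48 to −1.21), with 4.21% of all genes more than 2-fold lower and 3.39% higher.

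Lists of related genes were read in C1q-positive against C1q-negative *Lyz2* cells by counting the genes whose interval lay above 0 (higher) or below 0 (lower). Of all genes with UMIs enough for such an interval, 6.15% lay above and 5.16% below 0 in the library labelled WT, and 8.66% and 6.42% in the library labelled dKO, and abundant genes reach it more easily. Of the 8 monocyte genes, 7 were lower in C1q-positive cells labelled WT and 8 in those labelled dKO, with medians of −1.30 over the 6 and −1.33 over the 7 genes that reached the level for a comparison. *Cybb*, a chain of the phagocyte oxidase, had −0.61 and −0.32, *Fn1*, which encodes fibronectin, −1.75 and −2.13, and *Ccr2* −0.84 and −0.92. Of the 9 macrophage genes not already described, 3 and 5 were higher and 0 and 1 lower, and *Ms4a7*, a membrane protein of mature macrophages, had 2.19 and 3.06. *Lgmn*, a lysosomal protease, had 0.17 and 0.89, and *Cd68*, a lysosomal glycoprotein, −0.077 and −0.093. *Cd14*, the coreceptor for lipopolysaccharide that monocytes also carry, had −0.19 (−0.42 to 0.04) and −0.87 (−1.01 to −0.73) and was the 1 gene of the list that was lower. The 6 T cell genes were all higher in C1q-positive cells of both libraries, as the summed levels above also show.

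Among genes tied to the functions of the 10 genes, directions were mixed and are read beside the shares over all genes given above. Of 11 genes of the LXR and lipid list, of which 10 had UMIs enough in each library, 2 and 5 were higher and 1 and 3 lower. *Abca1*, the cholesterol exporter, had 0.99 and 1.02, *Lpl*, lipoprotein lipase, 0.55 and 0.48, and *Apoc2*, its cofactor, −0.71 and −1.41. Of 8 scavenger receptors, of which 6 had UMIs enough, 2 and 4 were higher and 0 lower, with *Mrc1*, the mannose receptor, at 2.41 and 6.13 and *Cd36*, a fatty acid transporter, at 0.35 (−0.05 to 0.75) and 1.40 (0.97 to 1.85). The values of *Mrc1* rest on 3 and 1 UMIs in C1q-negative *Lyz2* cells and have intervals from 0.65 to 4.81 and from 3.63 to 11.4.

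Of 9 other complement genes, of which 5 and 7 had UMIs enough, 1 and 2 were higher and 1 and 1 lower, with *C3ar1*, the receptor for C3a, at 1.37 and 2.71 and *C3* at −0.97 and −0.67. Of 5 genes of the CSF1R axis, of which 4 had UMIs enough, 0 were higher and 2 and 4 lower, among them *Spi1*, which encodes PU.1, at −1.09 and −0.67. Of the 6 genes linked to macrophages of MASH, 2 and 2 were higher and 1 and 4 lower, and *Spp1*, osteopontin, had −1.22 and −2.33. Of 9 Kupffer genes outside the 10, of which 5 and 7 had UMIs enough, 2 and 5 were higher and 0 lower. *Spi1* and *Spp1* were lower in C1q-positive cells in both libraries, while *Abca1*, *Mrc1* and *C3ar1* were higher.

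The extremes of the ratio between the gates, ranked by the smaller of the libraries' ratios among 1490 genes, were on the C1q side *Ms4a7*, *Adgre1* (which encodes F4/80, 2.04 and 2.50), *Cd72* (1.96 and 3.22), *Cd81* (1.81 and 2.77) and *Sash1* (1.52 and 1.58). On the other side stood *Hp*, which encodes haptoglobin (−2.69 and −3.22), *F13a1*, coagulation factor XIII (−2.69 and −2.56), *Plac8* (−2.67 and −2.27), *Slc16a3*, a lactate transporter (−1.96 and −2.08), and *F10*, coagulation factor X (−1.84 and −1.99). *Adgre1* and *Ms4a7*, on the C1q side, and *F13a1*, on the other, belong to the lists of macrophages and monocytes.

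The genes most like the mean of the 10 over 12 profiles (6 cell groups in 2 libraries) were sought among 2869 genes. They were *Itga9* with a Pearson correlation of 0.989, *Mertk* with 0.985, *Igf1* with 0.975, *Adgre1* with 0.972, *Mrc1* with 0.969, *Ms4a7* with 0.962, *Sash1* with 0.960 and *C3ar1* with 0.955. The profiles share libraries, and the correlation is a description.

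The level in T cells was taken as the measure of free RNA. *Lyz2* was at 17.9 CPM (15.3 to 20.8) in T cells labelled WT and at 26.5 CPM (23.3 to 29.96) in those labelled dKO, *Apoe* at 43.7 and 38.3 CPM, *C1qb* at 6.80 and 10.0 CPM and *Csf1r* at 1.38 and 1.88 CPM. *Cd5l* was at 0.851 CPM, from 8 UMIs, and at 3.24 CPM, from 31 UMIs. *Clec4f* was at 0.319 and 1.15 CPM, *Vsig4* at 0.425 and 0.209 CPM, and *Marco* at 0 and 0.419 CPM, all from at most 11 UMIs. C1q-positive cells lay far above these levels, 430-fold and 339-fold for *Lyz2*, 232-fold and 251-fold for *Apoe*, 265-fold (150 to 509) and 215-fold (134 to 367) for *Csf1r*, and 36.8-fold (13.8 to 104) and 78.2-fold (53.6 to 118) for *Cd5l*. The values of *Lyz2* and C1q in T cells were in part set by the rule, since cells with at least 3 *Lyz2* or C1q UMIs had been left out.

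Summed over the 10 genes, T cells held 80.4 CPM (74.7 to 86.3) and 93.2 CPM (87.1 to 99.5), or 22.4 and 22.1 UMIs per 100 cells, and 11.7% and 14.5% of the cells had any such UMI. These UMIs were not spread evenly, with a variance of 4.29 and 2.69 times the mean over cells and up to 17 and 15 UMIs in a cell, so the Poisson intervals are too narrow. The variance was 104 and 98.5 times the mean in C1q-positive cells and 60.9 and 48.0 times in C1q-negative *Lyz2* cells. The intervals of levels and ratios in those gates are therefore too narrow as well. The level also depended on the T cell rule, with 379.9 and 421 CPM over all cells with a productive TRB contig and 136 and 137 CPM after thinning. *Siglech* cells, a cell type that should also lack these genes, held 21.3 and 17.8 UMIs per 100 cells, or 72.4 CPM (62.7 to 83.2) and 53.9 CPM (49.6 to 58.4). In CPM they were thus lower than T cells in the library labelled dKO, and their gate also capped *Lyz2* and C1q. Across 4 equal parts of the T cells, from the shallowest to the deepest, the UMIs per 100 cells went through 16.8, 19.1, 23.4 and 30.1 in the WT-labelled library and through 17.4, 19.7, 22.5 and 28.8 in the dKO-labelled one. The median depth of these parts went from 1211.5 to 4687 UMIs and from 1011 to 4272 UMIs, and the level in CPM fell from 142 to 55.8 and from 174 to 59.7. Deeper T cells therefore held more of these UMIs per cell, while their CPM was lower.

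**Figure D5:**
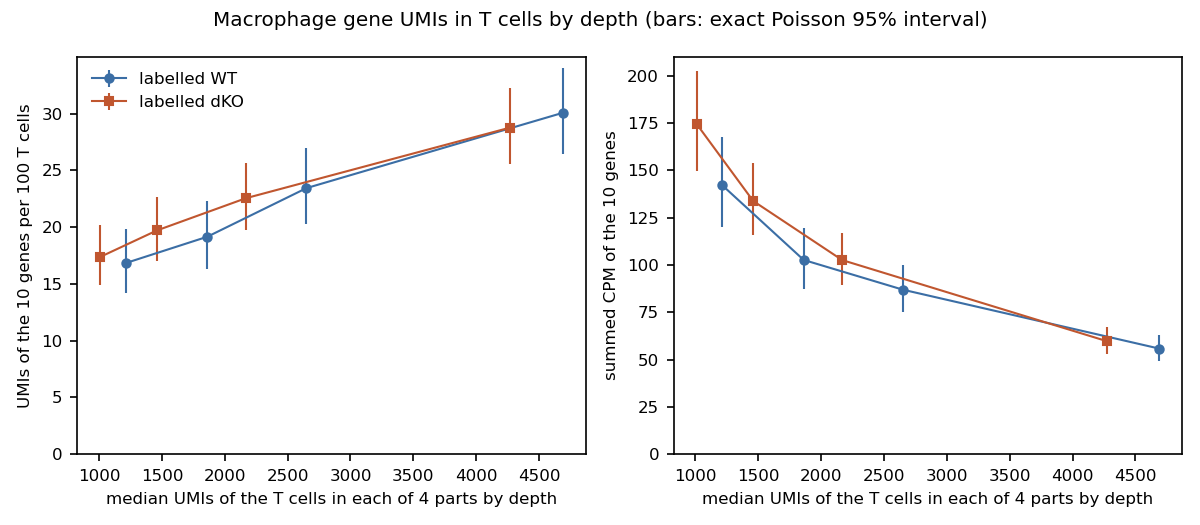
UMIs of the 10 genes per 100 T cells (left) and their summed CPM (right) in 4 equal parts of the T cells by depth, against the median UMIs of the part, for the libraries labelled WT and dKO, with exact Poisson 95% intervals as bars. The UMIs per 100 cells rise from 16.8 to 30.1 and from 17.4 to 28.8, and the CPM falls from 142 to 55.8 and from 174 to 59.7.

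Relative to C1q, the UMIs in T cells were closer to those of C1q-positive cells for *Csf1r* than for *Cd5l*. Per 100 C1q UMIs, T cells held 8.72 and 8.78 UMIs of *Csf1r*, and C1q-positive cells 7.68 and 6.21. *Apoe* was at 276 (228 to 335) and 179 (150 to 213) in T cells and at 213 and 147 in C1q-positive cells. *Cd5l* was at 5.37 (2.28 to 10.9) and 15.1 (10.0 to 22.1) in T cells, against 0.659 (0.340 to 1.15) and 3.89 (3.39 to 4.44) in C1q-positive cells, and *Clec4f* at 2.01 (0.411 to 5.999) and 5.37 (2.64 to 9.80), against 0.165 (0.0339 to 0.482) and 0.583 (0.403 to 0.815). *Vsig4* was at 2.68 (0.722 to 7.02) and 0.976 (0.117 to 3.57), against 0.384 (0.154 to 0.793) and 0.549 (0.375 to 0.775). *Marco* was at 0 in both groups labelled WT and at 1.95 (0.527 to 5.07) against 0.257 (0.144 to 0.424) in those labelled dKO. Of the 4 Kupffer genes, *Cd5l* was clear of the interval of C1q-positive cells in both libraries, while *Clec4f* and *Marco* were so in the library labelled dKO and *Vsig4* in neither. *Apoe* was above the interval of C1q-positive cells in the library labelled WT (202 to 226) and overlapped it in the other (143 to 152). *Lyz2*, which the T cell rule capped, was below it in the library labelled WT, at 113 (89.9 to 142) against 162 (152 to 171), and overlapped it in the other, at 123 and 137. The T cell rule capped C1q and not *Cd5l*, and the C1q-positive gate required at least 3 C1q UMIs. Both rules tend to make a gene's ratio to C1q higher in T cells than in C1q-positive cells. Intervals clear of each other therefore cannot decide whether free RNA differs in make-up from C1q-positive cells. Over all cells with a productive TRB contig, *Cd5l* was at 2.19 and 7.35 per 100 C1q UMIs, and *Csf1r* was at 13.3 in the library labelled WT. Whether *Cd5l* stays clear of the interval of C1q-positive cells under that definition was not tested.

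A further set of cells carried a receptor contig together with macrophage UMIs. Of the cells with a TRB contig, 58 and 46 had at least 3 *Lyz2* UMIs and held 89.3% and 85.1% of all *Lyz2* UMIs of such cells. For C1q these were 38 and 49 cells with 70.1% and 74.6% of the UMIs. Cells with a contig and at least 3 C1q UMIs numbered 43 and 55, with *Lyz2* at 2425 and 5831 CPM, *Apoe* at 3650 and 5012 CPM and *Cd5l* at 44.4 and 183 CPM. Most macrophage UMIs in cells with a TRB contig therefore lay in few cells. Whether these droplets held a macrophage and a T cell was not tested.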

How the data were processed

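Droplets of hepatic CD4+ T cells were analysed from 1 library per genotype, each from 2 pooled mice. For each library the authors deposited whole-number UMI counts per gene and cell (10602 and 17645 cells, 23494155 and 37966611 UMIs), made with Cell Ranger 7.0.1 on mm10 per the file headers and not normalized, and receptor contig tables. The study's cell filter was applied: over 200 genes in a cell, and mitochondrial UMIs under 5%. Its filter of genes by the number of cells with a transcript was not applied. The numbers of cells kept differ slightly from those the paper reports. UMIs were summed per gate and library and given as CPM. No cells were clustered and no doublet caller was run, and cells with Cd3 UMIs were left out as an alternative instead. Shares carry Clopper-Pearson, CPM exact Poisson and ratios exact conditional binomial intervals (95%). A count of 0 allows up to 3 UMIs. Positions come from GENCODE M21 on GRCm38 and promoters from RefSeq GRCm38.p6.

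A gene counts as compared with at least 100 CPM in either group and at least 10 UMIs in the lower, and as different past 2-fold. List genes were called by intervals clear of 0, against all genes with UMIs enough for such a call. Named were the 10 genes, the 8 most like their mean profile in log2(CPM + 10), the 5 at each end of the ratio between gates and up to 4 per list by level in C1q-positive cells. Immunoglobulin, receptor, mitochondrial and ribosomal protein genes were left out. The members and lists were chosen with earlier results of these data known. Alternatives were other gates, thinning to 1000 UMIs, cell filters, receptor contigs, Cd3 UMIs, weighting by cell, TMM scaling and other T cell definitions. Python 3.11.15, numpy 2.4.6, pandas 2.3.3, scipy 1.17.1, matplotlib 3.10.9, R 4.3.3 and edgeR 4.0.16 (TMM factors alone) were used. The ratio and its interval were tested on simulated data with Poisson counts. Those counts lack the spread between cells seen here, so the test does not cover it.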

Additional observations from a re-analysis of the deposited data

How the results depend on the processing

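No paired analysis was possible because each genotype has 1 library. For *Cd5l*, the log2 ratio between libraries in C1q-positive cells ranged from 2.78 to 5.29 over 11 alternatives, and that of *Apoe* in C1q-negative *Lyz2* cells from −1.90 to −1.35. The share of C1q-positive cells with at least 2 Kupffer gene UMIs ranged from 1.35% to 4.42% in the library labelled WT and from 16.5% to 19.6% in the library labelled dKO over 9 alternatives. TMM scaling moved log2 ratios by 0.07 in C1q-positive and 0.11 in C1q-negative *Lyz2* cells. The low UMI numbers of *Clec4f*, *Vsig4* and *Marco* limit what can be said of them, and the pooled mice give no error between animals.

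Sizes of the gates followed their definition. The share of C1q-positive cells labelled WT was 1.79% with a gate at 2 UMIs, 0.919% at 5, 0.559% at 10 (chosen after seeing the data), 0.858% after thinning, 1.71% with contig cells kept and 0.729% without cells with Cd3 UMIs. In the library labelled dKO these were 1.88%, 1.15%, 0.825%, 1.22%, 1.83% and 0.842%. The share of C1q-negative *Lyz2* cells labelled WT was 1.46% at 2 UMIs, 0.919% at 5, 1.45% with contig cells and 0.928% without Cd3 cells, and for the library labelled dKO it was 1.11% at 2 UMIs and 0.636% without Cd3 cells. The summed level in T cells was 136 and 137 CPM after thinning, 379.9 and 421 CPM over all cells with TRB and 91.7 and 102 CPM when Cd3 UMIs defined T cells. Of the 10 genes, 9 had a higher level in C1q-positive cells labelled dKO, and 5 without Cd3 cells. Leaving out the C1q genes, which chose the gate, these were 6 and 4 of 7, beside 49.0% and 55.2% of all genes.

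Between the libraries in C1q-positive cells, the log2 ratio of *Lyz2* turned to −0.22 after thinning, −0.23 without Cd3 cells, −0.018 as a mean over cells and −0.16 at 10 C1q UMIs. *C1qa* turned to −0.051 after thinning and −0.13 without Cd3 cells, *C1qb* to −0.043 without Cd3 cells and −0.012 as a mean over cells, and *Apoe* to 0.019 at 2 UMIs and 0.10 with contig cells kept. The ratio of *Csf1r* between the gates ranged from −0.16 to 0.44 in the library labelled WT and from −0.065 to 0.26 in the library labelled dKO. Between the gates of the library labelled WT, *Lyz2* turned to 0.19 without Cd3 cells and 0.39 at 10 C1q UMIs. The cause was not tested.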

Other observations

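Within the T cells, *Lyz2* was at 14.0 CPM (7.24 to 24.5) in cells labelled WT with a *Foxp3* UMI, *Foxp3* being the master factor of regulatory T cells. It was at 14.6 CPM (10.4 to 19.9) in cells with a UMI of *Ifng* and none of *Foxp3*, and at 19.9 CPM (16.5 to 23.9) in cells with neither. In the library labelled dKO it was at 23.0 CPM (18.2 to 28.6), 35.5 CPM (23.2 to 52.1) and 27.5 CPM (23.3 to 32.4). *Apoe* was at 59.6 CPM (44.3 to 78.3), 24.6 CPM (19.1 to 31.4) and 50.1 CPM (44.5 to 56.1) in these groups labelled WT, and at 30.4 CPM (24.9 to 36.8), 26.0 CPM (15.6 to 40.6) and 45.1 CPM (39.6 to 51.2) in those labelled dKO. The log2 ratio of *Apoe* in *Foxp3* cells over cells with neither was 0.25 (−0.21 to 0.68) labelled WT and −0.57 (−0.91 to −0.23) labelled dKO, and in *Ifng* cells it was −1.02 (−1.43 to −0.63) and −0.80 (−1.55 to −0.12). These groups were chosen after the values were seen, and the depth of their cells was not matched.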
